A study of Mus musculus with 2 samples.

Results

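The genes described here encode the initiation and elongation factors of cytosolic protein synthesis, with the poly(A)-binding protein Pabpc1 and the growth-linked protein Tpt1. They were chosen by symbol, as 34 named genes, and not by their values, though earlier results of these data were known at the time. Of these, 30 had a probe on the array, and Eif1, Eif2s1, Eif3g and Eif4g1 were not analysed here for want of a probe under those symbols. The array annotation named 19316 genes in all. Of the 30 genes with a probe, 26 passed the filter on dim genes used below, which 7446 genes of the array passed. All 26 passed it on both arrays, so none entered through 1 fraction alone.

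Total RNA came from extracellular vesicles released by murine CTL, short for cytotoxic T lymphocytes, which destroy infected cells and tumour cells. The cells were cultured for 7 days. Their medium was concentrated and freed of protein on a 750 kDa ultrafiltration membrane, and was then run through a DEAE column. This anion exchanger carries positive charge and releases more negative particles at higher salt. One group is the vesicle fraction eluted at 0.3 M NaCl and the other is the fraction eluted at 0.5 M NaCl. Both carry the same culture, filtration and amplification protocols in the labels, each was labelled with Cy5, and each was measured on 1 array. The sources used here give neither strain, stimulus and age of the mice nor how many preparations a fraction holds. RNA of the producing cells was not analysed here. The question the comparison addresses is whether vesicles that differ in charge hold different messenger RNAs. With 1 array per fraction there is no replicate, no test and no p-value, and each value below holds for these arrays alone.

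Protein synthesis starts when eIF2 brings the initiator tRNA to the small ribosomal subunit, where eIF1, eIF1A, eIF3 and eIF5 are bound. The eIF4 factors recognise the cap of the messenger RNA, unwind its leader and, together with the poly(A)-binding protein, join its ends. After the subunits meet, eEF1A delivers each aminoacyl tRNA, the eEF1B complex recharges eEF1A with GTP, and eEF2 moves the ribosome along. T cells raise their protein synthesis strongly when activated. Many messages of this machinery begin with a terminal oligopyrimidine (TOP) stretch, a C followed by further C and T bases, which places their translation under control of the kinase mTOR.

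Of the members, 11 are commonly listed as TOP messages. They are the elongation factors Eef1a1, Eef1b2, Eef1d, Eef1g and Eef2, the eIF3 subunits Eif3e, Eif3f and Eif3h, and Eif4b, Pabpc1 and Tpt1. RefSeq promoter sequences (GRCm38.p6) were matched for 25 of the 34 genes and for 6 of these 11. The stretch around the annotated start is shown for 4 of them, because the TOP list is 1 of the groupings used below. Each runs from 25 bases before the start to 27 bases from it on, 5′ to 3′ on the strand of the gene, with the longest unbroken run of C and T in capitals, or the first of them where runs tie.
Eef1a1, chr9:78481698-78481749, minus strand: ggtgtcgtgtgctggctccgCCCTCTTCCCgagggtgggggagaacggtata
Eef2, chr10:81176606-81176657, plus strand: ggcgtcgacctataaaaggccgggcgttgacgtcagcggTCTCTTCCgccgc
Eif3f, chr7:108934390-108934441, plus strand: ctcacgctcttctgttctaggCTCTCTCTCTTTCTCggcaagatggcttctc
Eif4b, chr15:102073748-102073799, plus strand: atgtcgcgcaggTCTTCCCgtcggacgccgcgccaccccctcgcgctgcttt
The run had 10 bases in Eef1a1, 8 in Eef2, 15 in Eif3f and 7 in Eif4b, which holds 2 runs of that length. In Eef1a1 and Eif3f it crossed the annotated start, in Eef2 it began at base 15, and in Eif4b the first of the pair lay before the start and the other after it. From 30 bases before to 50 bases after the start, 3 of the 6 matched TOP genes and 7 of the 19 other matched members held a run of at least 8 bases that are each C or T. A member counted if any of its promoters held one, and Eif4e and Eif5a counted though not all of theirs did. The share over all promoters is counted per promoter, so it is not a like measure. Of all 32851 promoters 29.0% held one on the strand of the gene and 32.2% on the opposite strand. The matched TOP genes that are not printed had shorter longest runs in that window than each printed one. These were 5 bases from base 33 in Eef1b2 and 6 bases from base 41 in Tpt1. Runs that cross the start were not confined to the TOP list. Outside it, Eif2s3x held a run of 16 bases from position -5, longer than each printed one. Eif3l held a run of 10 bases from position -7. Both crossed the annotated start. A run is a description of these letters and not a measured start of transcription.

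Of 23473 probes, 80.8% had a value on the 0.3 M array and 71.3% on the 0.5 M array. Intensities are given as deposited. The probes measured on both had a median of 32 on the 0.3 M array and of 26 on the other, a shift of -0.30 in log2. The differences below are log2 intensity at 0.5 M minus 0.3 M after each array was centred on that median. On this scale the median of all 7446 genes that passed the filter was 0.08, the quartiles were -0.29 and 0.47, and the SD was 0.56. The SD between probes of the same gene, over 358 such genes, was 0.55, and it is the only error these arrays give. Variation from one vesicle preparation to the next is not in it. Differences grew with intensity, from a median of -0.04 in the dimmest 10% of those genes to 0.46 in the brightest 10%. For this reason the results on complexes are also given with quantile normalization, which makes both arrays follow 1 distribution, and with loess, which removes the trend of the difference on intensity. CTL markers were present, among them Cd8a (3677 and 2463 at 0.3 and 0.5 M), Gzmb (2493 and 2838) and Tbx21 (39433 and 25174), while Cd3e was dim (12 and 14). All 11 CTL markers had a value on both arrays, as did 16154 of all 23473 probes, so a value alone says little. Prf1 (33 and 26) stood near the median of each array. The summed intensity of the CTL markers, most of it from Tbx21, was 48008 at 0.3 M and 33173 at 0.5 M. The list as a whole did not share that fall. Of the 10 CTL markers that passed the filter, 6 lay above the median of all genes with centring (50.0% of all genes). With loess 5 did (49.9% of all genes). Their median difference was 0.47 with centring and 0.06 with loess. Markers of other cells differed between the fractions too. The summed intensity of 10 macrophage and dendritic markers, with class II genes, was 646 at 0.3 M and 1443 at 0.5 M, with 9 measured and Adgre1 empty on both arrays. The rise of that sum lay in Cd74 (43 and 188) and class II genes such as H2-Aa (188 and 863) and H2-Eb1 (58 and 200). Mrc1 (259 and 87) was lower at 0.5 M. That of 7 B cell markers was 381 and 549, with 5 measured and Pax5 empty on both arrays, where Cd79b went from 94 to 328 and Cd22 from 225 to 126. That of 6 red cell markers, mostly globins, was 17143 and 7924, with 4 measured. Of 3 helper T cell markers, Cd4 went from 40 to 25, Foxp3 did not pass the filter and Cd40lg had a value at 0.5 M alone (36). Their part in the results below was not tested. Fewer vesicles of a kind and less RNA per vesicle cannot be told apart in such bulk samples.

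**Figure D1:**
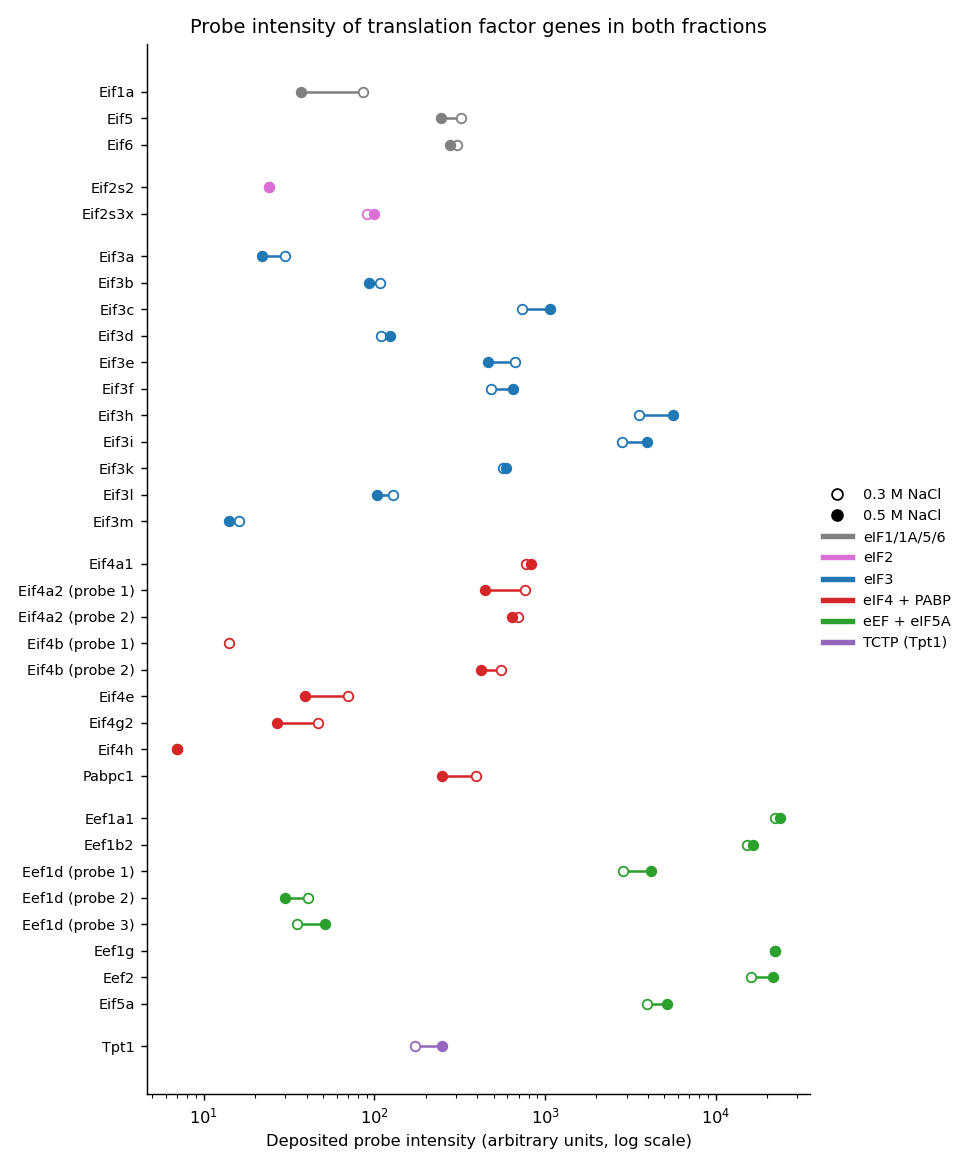
Deposited probe intensity (arbitrary units, log axis) of the 30 translation factor genes with a probe, coloured by complex, with an open circle for 0.3 M NaCl and a filled circle for 0.5 M NaCl. Probes differ in their response, so circles are to be compared within a row only; Eif3h goes from 3554 to 5645 and Eif1a from 86 to 37.

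No member differed by 2-fold between the fractions. Of the 26 members that passed the filter, 0 were at least 2-fold higher and 0 at least 2-fold lower at 0.5 M, against 5.24% and 2.35% of all genes (390 and 175). That split of all genes rests on the scaling. It was 121 higher (1.63%) and 579 lower (7.78%) as deposited, 250 (3.32%) and 288 (3.82%) with quantile normalization, and 235 (3.16%) and 293 (3.93%) with loess. Among members the 2-fold count stayed at 0 in either direction under the other scalings, except for Eif1a as deposited. The median of the 26 differences was 0.38 and their SD was 0.49, close to the SD of all genes. Above the median of all genes lay 17, against 50.0% of all genes. That excess was not seen with the other treatments of the intensity trend, where 13 lay above with quantile normalization (50.0% of all genes) and 12 with loess (49.9%). The median of the members was then -0.00028 and -0.014. With centring, 7 members were over 1 probe SD above the median of all genes (17.0% of all genes). Over 1 probe SD below it were 3 (14.8% of all genes). These counts were made with centring alone. With quantile normalization the highest differences were 0.69 for Tpt1, 0.59 in eIF3 and 0.37 in the elongation group. With loess they were 0.69, 0.47 and 0.32, against a probe SD of 0.55.

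The members did not share 1 direction, and the sides they took differed by complex. Subunits of eIF3 lay mostly above the median of all genes and the eIF4 factors with Pabpc1 mostly below it, whichever scaling was used. The median of eIF3 exceeded that of the eIF4 group by 0.73 with centring and as deposited, by 0.84 with quantile normalization and by 0.74 with loess. The elongation factors exceeded the eIF4 group by 0.71 with centring, but by only 0.46 with quantile normalization and 0.32 with loess. Of the 26 members, 12 lay above the median of all genes under all 4 scalings and 9 below it under all 4, against 47.1% and 47.3% of all genes, and 5 changed side. Centring and the values as deposited differ by a constant and so put every gene on the same side, which leaves 3 distinct scalings among the 4. These gaps have no test, since the members of a complex are not replicates of a fraction.

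**Figure D2:**
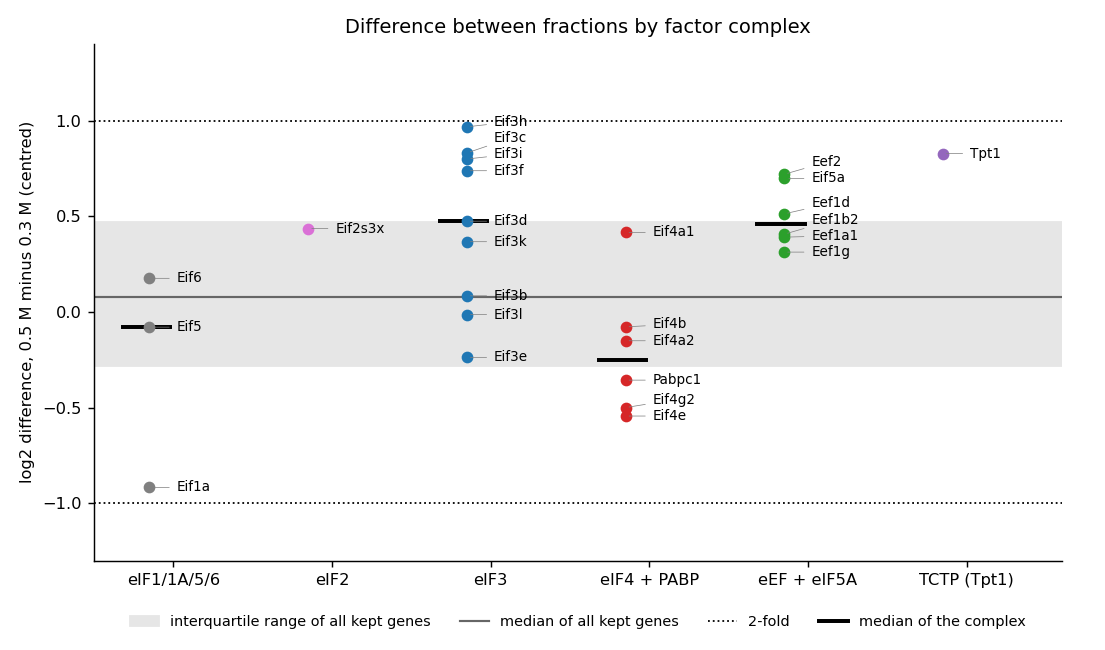
Log2 difference between the 0.5 M and 0.3 M fractions after centring (y axis) for each of the 26 members that passed the filter, by complex (x axis); the grey band is the interquartile range of all genes that passed (-0.29 to 0.47), the grey line their median (0.08), dotted lines mark 2-fold and thick black bars the median of a complex with at least 3 points. Points of eIF3 and of the elongation factors sit mostly above the line and those of the eIF4 group mostly below it, and no point crosses a 2-fold line.

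The factor eIF3 is the largest initiation complex and the scaffold on the small ribosomal subunit that holds the other factors and the messenger RNA. Of its 12 listed subunits, 11 had a probe and 9 passed the filter. Their median difference was 0.47, from -0.24 to 0.97, and 7 of the 9 lay above the median of all genes under each of the 4 scalings. For Eif3b, at 0.084 against a median of all genes of 0.077, the margin was slight, and 6 lay above with 16 added to each intensity or with the stricter filter on dim genes. The median was 0.17 as deposited, 0.39 with quantile normalization and 0.26 with loess, against medians of all genes of -0.22, 0.00 and -0.0014.

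Eif3h, a subunit of the octameric core with an MPN domain, had the highest difference among all members with centring and as deposited, though not with quantile normalization or loess. Its intensity was 3554 at 0.3 M and 5645 at 0.5 M, a difference of 0.97 or 1.95-fold after centring. That stands at percentile 94.1 of all genes, at 86.1 with quantile normalization (0.59) and lower with loess (0.39). Its partner in the core, Eif3f, the other subunit with an MPN domain, went from 479 to 649 (0.74) and kept 0.45 with loess.

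Eif3c, a large core subunit that contacts eIF1 and eIF5, went from 735 to 1062, a difference of 0.83. It stayed at 0.54 with quantile normalization and 0.47 with loess, the highest loess difference among the eIF3 subunits. Eif3k, a small subunit of the core, went from 566 to 593 (0.37). With loess its difference was 0.07.

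Not all of the core was on that side. Eif3e, which contacts eIF4G, went from 669 to 461, a difference of -0.24. It was lower still with quantile normalization (-0.45) and loess (-0.53). Eif3c and Eif3e, both core subunits, thus had differences of different sign under every scaling. Eif3l, a further core subunit, went from 128 to 103 (-0.01). The largest subunit, Eif3a, around which the complex is built, was dim at 30 and 22 and did not pass the filter, nor did Eif3m at 16 and 14. The 6 core subunits that passed had a median of 0.55 with 4 above the median of all genes. With the dim Eif3a (-0.15) and Eif3m (0.11) included, the median of all 8 was only 0.24.

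The peripheral subunits sit around the mRNA channel of the ribosome. Eif3i, a WD-repeat subunit, went from 2810 to 3972 (0.80, and 0.26 with loess). Eif3d, known for cap binding on certain messages, went from 109 to 123 (0.47). Its difference was 0.39 with quantile normalization, 0.40 with loess and 0.17 as deposited. Eif3b, the scaffold that holds Eif3i and Eif3g, went from 108 to 93, a difference of 0.08, hardly above the median of all genes. Core and peripheral subunits overlapped fully in their differences.

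The eIF4 factors handle the cap and the leader of the messenger RNA. Of 8 listed genes with Pabpc1, 7 had a probe and 6 passed the filter, with a median difference of -0.25. Of the 6, 5 lay below the median of all genes under each of the 4 scalings. The median was -0.55 as deposited, -0.45 with quantile normalization and -0.48 with loess. Since the median of all genes as deposited was -0.22, the group lay 0.33 below it with centring and as deposited. With the stricter filter, which dropped the dim Eif4e and Eif4g2, the median of the group was -0.11 over 4 genes, against 0.17 for all genes.

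Eif4e, the protein that binds the cap, had intensities of 70 and 39, a difference of -0.54. Eif4g2, also known as DAP5, an eIF4G relative that cannot bind eIF4E, had 47 and 27, a difference of -0.50. Both stood between percentiles 12 and 17 of all genes under each scaling. With 16 added to every intensity the differences were -0.45 and -0.36. Pabpc1, which coats the poly(A) tail, went from 394 to 250 (-0.36, and -0.55 with loess).

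The RNA helicase eIF4A is encoded by a pair of close paralogs that were on different sides. Eif4a1 went from 768 to 832, a difference of 0.42 with centring, 0.16 with quantile normalization and 0.07 with loess. Eif4a2 had 2 probes, which went from 760 to 444 (-0.48) and from 696 to 638 (0.17). Their mean was -0.15, and with the second alone Eif4a2 was above 0 and above the median of all genes. The gap between the paralogs is thus no larger than that between the probes of Eif4a2. Eif4b, which stimulates the helicase, went from 551 to 424 on its measured probe (-0.08, and -0.35 with loess). A second Eif4b probe had a value of 14 at 0.3 M and none at 0.5 M and was not used. Eif4h, a related stimulator, was at 7 on both arrays and did not pass the filter.

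**Figure D3:**
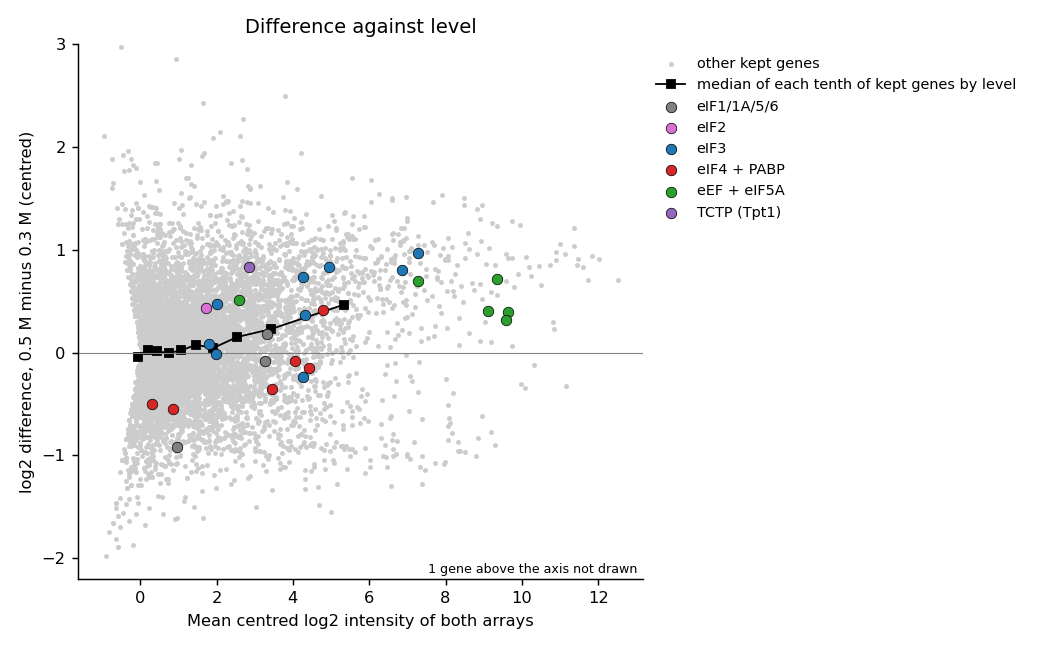
Log2 difference after centring (y axis) against mean centred log2 intensity of both arrays (x axis) for all genes that passed the filter (grey), with members coloured by complex and black squares for the median of each successive 10% of genes by level; 1 gene lies above the axis. The squares climb from -0.04 to 0.46, and the elongation factors sit at the right, where that trend is largest.

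All 6 elongation factor genes, counting eIF5A, passed the filter, and all 6 had differences above the median of all genes with centring and as deposited. The group median was 0.46, from 0.31 to 0.72, a narrower spread than that of eIF3. This direction turned with the scaling. The median was 0.02 with quantile normalization, where 3 of 6 lay above the median of all genes, and -0.17 with loess, where 2 did. Deposited intensities of these probes, Eef1d apart, were between 3934 and 23693, in the brightest 10% of genes, which had a median difference of 0.46 as well.

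Eef1a1, which carries aminoacyl tRNAs to the ribosome, went from 22246 to 23693 as deposited, a difference of 0.39 after centring. With quantile normalization it was at -0.15 and with loess at -0.37. Its RNA has many near-identical processed copies in the genome, so the probe may read more than 1 gene. Eef1b2 and Eef1g, subunits of the exchange factor eEF1B, behaved alike. Eef1b2 went from 15314 to 16486 (0.41, and -0.31 with loess), and Eef1g from 22173 to 22371 (0.31, and -0.45 with loess).

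Eef1d, the other exchange subunit, had 3 probes that did not give 1 answer. They went from 2874 to 4194 (0.84), from 35 to 51 (0.84) and from 41 to 30 (-0.15). The mean of the 3 was 0.51, and it was 0.84 with the brightest probe alone. Under loess the mean was 0.32, so Eef1d lay above the median of all genes under all 4 scalings.

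Eef2, the translocase, went from 16162 to 21618, a difference of 0.72 or 1.65-fold after centring. Loess took it to -0.02, at percentile 48.8 of all genes. Eif5a, the hypusine-bearing factor that helps ribosomes past difficult sequences, went from 3934 to 5183 (0.70). It remained above the median of all genes with quantile normalization (0.32) and loess (0.12), as did Eef1d. The pair of them are the elongation genes that did not change side.

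**Figure D4:**
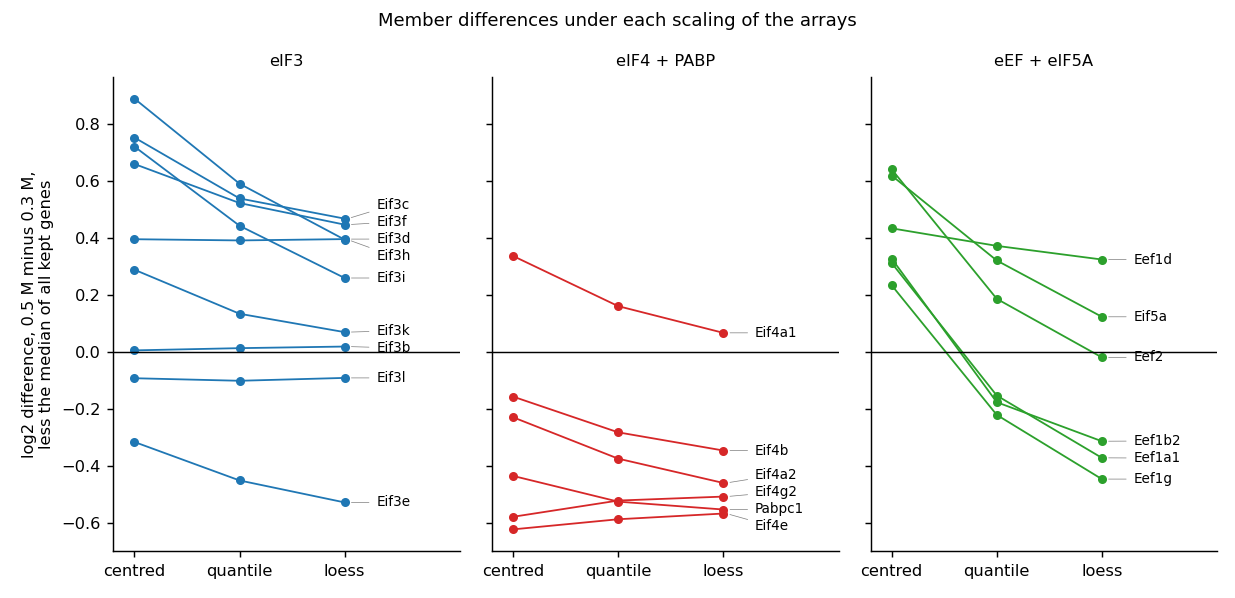
Log2 difference of each member, 0.5 M minus 0.3 M, less the median of all genes under the same scaling (y axis), with centring, quantile normalization and loess (x axis), for eIF3, the eIF4 group and the elongation group; values as deposited coincide with centring on this axis. No line of eIF3 or of the eIF4 group crosses 0, whereas 4 of the 6 elongation lines do.

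The other initiation factors were few. Eif1a, which helps the small subunit scan for the start codon, had the lowest difference of all members. Its intensity was 86 at 0.3 M and 37 at 0.5 M, a difference of -0.92 or 1.89-fold lower after centring, at percentile 3.32 of all genes. The other scalings gave -0.96 and -0.94, and as deposited the difference was -1.22. It was -0.75 with 16 added to each intensity.

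Eif5, which makes eIF2 hydrolyse its GTP at the start codon, went from 320 to 246 (-0.08, and -0.26 with loess). Eif6, which keeps the large subunit from joining too early, went from 303 to 278 (0.18, and -0.01 with loess). Of eIF2, the carrier of the initiator tRNA, the gamma subunit Eif2s3x went from 91 to 100 (0.44). It kept 0.36 with quantile normalization and 0.37 with loess. Eif2s3x has a close copy on the Y chromosome, Eif2s3y, whose probe had 30 and 11 and did not pass the filter, and which is named after its values were seen. The beta subunit Eif2s2 was dim, at 24 on both arrays. With 1 subunit measured, eIF2 as a complex is not described.

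Tpt1 encodes TCTP, a small protein of growing cells, and its message is a well known TOP message. Its intensity was 172 at 0.3 M and 248 at 0.5 M, a difference of 0.83 or 1.77-fold after centring. It stood at percentile 90.5 of all genes, at 90.3 with quantile normalization (0.69) and at 90.3 with loess (0.69). With quantile normalization and with loess no other member stood as high.

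The TOP messages taken as a group did not share a direction. All 11 passed the filter, with a median of 0.41 and 8 above the median of all genes with centring. The 15 members outside that list that passed had a median of 0.18 and 9 above. With quantile normalization the TOP median was -0.15 with 5 above, against 0.01 and 8 above for the others, and with loess it was -0.31 with 4 above, against 0.02 and 8. The TOP genes Tpt1, Eif3h, Eif3f and Eef1d thus lay above the median of all genes under all scalings while Pabpc1, Eif3e and Eif4b lay below it. The sequences printed above for Eif3f and Eif4b belong to genes on different sides, with differences of 0.74 and -0.08.

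A list of 65 other genes of translation and its control was chosen by role, with earlier results of these data known. Of these, 38 passed the filter, 34 on both arrays. Their median difference was -0.02 with centring and -0.05 with quantile normalization and with loess. Above the median of all genes lay 15 and below it 23 with centring and with loess. With quantile normalization, under which 39 passed the filter, these were 17 and 22. At least 2-fold higher was 1 gene and at least 2-fold lower were 0, against 5.24% and 2.35% of all genes.

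The gene past 2-fold was Tsc1, a brake on mTOR, which went from 46 to 106 (1.50, and 1.46 with loess). Paip2, an inhibitor of the poly(A)-binding protein, went from 55 to 77 (0.78, and 0.75 with loess). Mcts1, a partner in reinitiation, went from 81 to 104 (0.66, and 0.60 with loess). Eif4e2, a cap-binding relative of eIF4E, went from 27 to 35 (0.67). It passed the filter at 0.5 M alone, where it was higher, and its difference was 0.44 with 16 added to each intensity. With centring these 3 were the next largest in size after Tsc1, and each rests on 1 probe. With loess Hbs1l was larger in size than each of them. Tsc2, the partner of Tsc1, and the kinase Mtor are named after their values were seen. Tsc2 went from 38 to 43 (0.48, and 0.47 with loess). Mtor went from 41 to 25 (-0.41, and -0.42 with loess), and passed the filter at 0.3 M alone.

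The factors that end translation or rescue stalled ribosomes were measured on few probes, and they are named here after their values were seen. Gspt1, which encodes the release factor eRF3a, went from 137 to 73 (-0.61). Etf1, which encodes eRF1, the factor that reads the stop codon, went from 87 to 50 (-0.50). Hbs1l, a GTPase of ribosome rescue, went from 736 to 401 (-0.58), while its partner Pelo went from 47 to 44 (0.20, and 0.19 with loess). The median of these 4 was -0.54 with centring, -0.62 with quantile normalization and -0.60 with loess. The exchange factor eIF2B, with 4 of 5 subunits past the filter, lay at a median of 0.02, from -0.10 to 0.32, and at -0.08 with quantile normalization and with loess. The other elongation genes had a median of 0.16 over 7 genes with centring, 0.039 with quantile normalization, -0.015 with loess and -0.14 as deposited. That of the mTOR pathway was 0.03 over 8 genes with centring, -0.0027 with quantile normalization, -0.0036 with loess and -0.27 as deposited. The signs of the medians of eIF2B, the other elongation genes and the mTOR pathway thus turned with the scaling. Against the median of all genes under the same scaling, eIF2B lay below with centring (-0.057), quantile normalization (-0.080) and loess (-0.078). The mTOR pathway did too, though by little (-0.047, -0.0027 and -0.0022), while the other elongation genes changed side (0.082, 0.039 and -0.014).

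**Figure D5:**
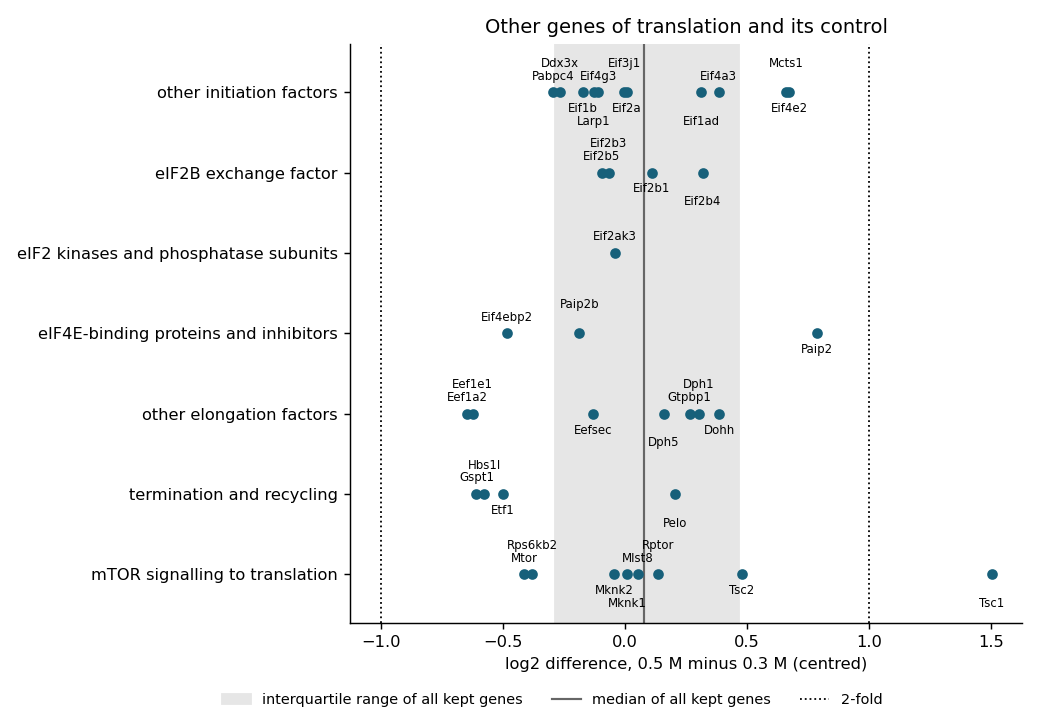
Log2 difference after centring (x axis) of the 38 other genes of translation that passed the filter, by list (y axis); the grey band and line are the interquartile range and the median of all genes that passed, and dotted lines mark 2-fold. Tsc1, at 1.50, is the only gene past a 2-fold line. Left of the band sit Gspt1, Hbs1l and Etf1, and also Eef1a2, Eef1e1, Eif4ebp2, Mtor, Rps6kb2 and Pabpc4. Of these, Eef1a2 (-0.65) and Eef1e1 (-0.62) were the lowest. The genes left of the band are named after their values were seen.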

How the data were processed

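The authors deposited 1 table of probe intensity values, whole numbers on a linear scale, for both arrays. Per the labels' protocols, RNA was amplified by an amino allyl method and coupled to Cy5. Scanner, background correction, normalization and the rule behind empty cells: not given in the sources used here. Precision is limited by the number of arrays. Probes were named from the platform annotation (20690 with 1 symbol, 2783 with none), updated through RefSeq GRCm38.p6 (20556 by Entrez identifier, 9 by accession, 125 left as annotated). No build is named for the array. Empty cells were left without a value. Intensities were log2-transformed and centred on the median over probes with both values. Probes of a gene were averaged. The filter kept genes that reached the median of measured genes on either array (7446 of 13735). A 2-fold rule served to count genes. Alternatives were no centring, quantile normalization, loess (lowess in statsmodels 0.14.6, span 0.3), no filter, a filter at the 75th percentile, a pseudocount of 16 and the brightest probe. The steps were tested on simulated data with large planted changes and no trend with intensity. That test does not bear on the smaller differences given here, nor on how they move with the scaling. All members are named whatever their values. Of the other pathway genes, those past 2-fold and those with the largest differences, to 4 in all, are named, and others are said to be named after their values were seen. The members and lists were chosen with earlier results of these data known.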

Additional observations from a re-analysis of the deposited data

How the results depend on the processing

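Member medians depended on scaling. As deposited, all differences are 0.30 lower, with medians of 0.079 for all members, 0.17 for eIF3, -0.55 for the eIF4 group and 0.16 for the elongation group, and 1 member, Eif1a, was then 2-fold lower. With quantile normalization all members had a median of -0.00028 and the elongation group 0.018. With loess the medians were -0.014 for all members, 0.26 for eIF3, -0.48 for the eIF4 group and -0.17 for the elongation group. The remaining medians of all members and of complexes moved by less than the probe SD over the root of the number of genes. Of the 26 single differences, 5 changed sign with loess, 4 with quantile normalization, 2 as deposited and 1 with the brightest probe. No sign changed with the pseudocount, without the filter or with the stricter filter, which kept 24. The stricter filter dropped Eif4e and Eif4g2, and the median of the eIF4 group was then -0.11. Without the filter it was -0.15. Over all genes 390 higher and 175 lower became 121 and 579 as deposited, 250 and 288 with quantile normalization, 235 and 293 with loess, 701 and 380 without the filter, 285 and 83 with the stricter filter, 157 and 98 with the pseudocount, and 415 and 184 with the brightest probe. No paired analysis was possible because each fraction has 1 array. Dim probes, such as Eif4h and Eif3m, limit what can be said of those genes.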

Other observations

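Paralogs outside the member list, picked out after their values were seen, did not always lie beside their members. Eef1a2, the eEF1A form best known from muscle and neurons, went from 52 to 27, a difference of -0.65 against 0.39 for Eef1a1, and it stayed at -0.65 with loess while Eef1a1 was then at -0.37. The cap-binding relative Eif4e2 had a difference of 0.67 against -0.54 for Eif4e, but it passed the filter at 0.5 M alone, where it was higher, and was at 0.44 with 16 added to each intensity. Pabpc4, a second cytosolic poly(A)-binding protein, went from 1079 to 714 (-0.30), near the -0.36 of Pabpc1. Eif4a3, the eIF4A relative of the exon junction complex, went from 362 to 384 (0.38), near the 0.42 of Eif4a1. Each of these paralogs has 1 probe. Among probes with a value on 1 array alone were those of Eif5b, the GTPase of subunit joining, at 7, and of the helicase Dhx29, at 5, both at 0.3 M and both near the lowest intensity of that array, which was 4. Eif5b and Dhx29 are also named after their values were seen.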
